A study of Mus musculus with 4 samples.

Results

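The T cell receptor alpha and delta locus was described by the open chromatin peaks of mouse DN3 thymocytes, CD4/CD8 double-negative T cell precursors, that lay on chromosome 14 between 52400000 and 54320000 (mm10). This stretch of 1.92 Mb holds the V, D, J and C gene segments of Tra and Trd, their enhancers, and the neighbouring genes. Peaks of all 4 libraries were merged wherever they overlapped, which gave 48 regions of 36224 in the genome, and each was mapped to the nearest of the 202 Tra or Trd segments of the RefSeq annotation. All groups were DN3 cells from the thymus of wild-type mice, isolated by flow sorting, and parted on magnetic beads into cells bearing the surface molecule EpCAM (EpCAM-positive, 2 libraries) and the unlabelled remainder (EpCAM-negative, 2 libraries). The assay was ATAC-seq, whose transposase cuts DNA where chromatin is open. The labels give no age, sex or strain. They do not say whether each library had its own mice, and the p-values may therefore measure technical spread.

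Developing T cells assemble the alpha and delta chains of their receptors from gene segments that share this locus, with the Trd D, J and C segments lying between the V segments and the Traj segments. In textbook order the delta segments are joined in double-negative cells, and joining of a V segment to a Traj segment follows at the double-positive stage and deletes the Trd segments between them. The enhancer of Tra, E-alpha, lies between Trac and the housekeeping gene Dad1, with further hypersensitive sites of a locus control region beside it. The enhancer of Trd, E-delta, lies between the Trd J segments and Trdc. V segments carry their own promoters, and the T early alpha promoter lies before the first Traj segment. A peak list cannot tell a site that is open in fewer cells from a site that is open less often per cell.

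Of the 12 RefSeq promoter windows in this stretch (GRCm38.p6, reaching from 250 bases before a start to 50 after it), 4 overlapped a region, and the region was called in all 4 libraries each time. These starts were a start of the long noncoding RNA Gm30392 beside Trdv2-2, the facing starts of Dad1 and Abhd4, and a second start inside Abhd4. The 199 bases before the start are shown for these sites because a region overlapped them. All 199 lay under the region before Dad1, 156 before Gm30392 and 82 before the inner Abhd4 start, and the summit lay 488 bp inside Gm30392 and 40 bp inside Abhd4 from its inner start. That length is the whole distance between the starts of Dad1 and Abhd4, so the Dad1 sequence read from the other strand is also the stretch before Abhd4. Each is written 5′ to 3′ on the strand of its gene, at chr14:53961653-53961851 (minus strand) for Gm30392, chr14:54253930-54254128 (minus strand) for Dad1 and chr14:54259084-54259282 (plus strand) for the inner Abhd4 start, and capitals mark matches to the motifs searched.
Gm30392: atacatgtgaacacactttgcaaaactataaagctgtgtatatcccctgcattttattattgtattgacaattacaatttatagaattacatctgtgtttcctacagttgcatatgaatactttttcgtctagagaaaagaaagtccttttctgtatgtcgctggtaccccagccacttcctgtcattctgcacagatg
Dad1: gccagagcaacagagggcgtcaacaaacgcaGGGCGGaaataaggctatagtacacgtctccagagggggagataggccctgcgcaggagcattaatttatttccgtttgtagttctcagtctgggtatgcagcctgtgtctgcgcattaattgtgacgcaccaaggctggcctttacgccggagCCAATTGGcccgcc
Abhd4, inner start: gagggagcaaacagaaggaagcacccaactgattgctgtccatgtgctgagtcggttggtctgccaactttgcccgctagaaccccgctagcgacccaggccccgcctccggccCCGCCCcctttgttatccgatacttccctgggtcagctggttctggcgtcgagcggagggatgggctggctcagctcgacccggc
Both strands were searched for the Runx motif TGTGGT, the ETS motif CCGGAAG, the GATA motif AGATAA, the TCF motif CTTTGA, the cAMP response element TGACGTCA, the E-box CAGGTG, the GC box GGGCGG and the CCAAT box CCAAT. The stretch before Dad1 held 1 GC box and a CCAAT box on each strand, which overlap each other, and the stretch before the inner Abhd4 start held 1 GC box. The stretch before Gm30392 held none of these letters. Among 32851 RefSeq promoter stretches of the same length, 31.0% held a GC box and 29.3% a CCAAT box, while 11.1% held the Runx letters, 6.28% ETS, 7.71% GATA, 10.8% TCF, 1.47% the cAMP response element and 13.8% the E-box. The Gm30392 stretch was 35.7% G or C with 2 CpG dinucleotides, against 54.8% and 11 before Dad1, 63.8% and 13 before the inner Abhd4 start, and medians of 52.8% and 5 over all promoters.

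The deposited lists held 24598 to 29030 peaks, and their read totals are unknown. Depth could be compared only through the lowest background that the peaks gave, 0.388 and 0.383 fragments in EpCAM-positive against 0.290 and 0.286 fragments in EpCAM-negative libraries. The lowest −log10 q in a list was 2.07 and 2.02 in EpCAM-positive against 1.32 and 1.34 in EpCAM-negative libraries. Whether the caller's cutoffs differed is unknown. Of 6 marker genes chosen for the DN3 stage, Il2ra, Notch1, Bcl11b and Cd3e had a region at a gene end in all 4 libraries, and Ptcra and Rag1 had one in at most 2. Both Cd4 and Cd8a, of the double-positive stage, had no region at a gene end. Among 24 markers of the 7 other cell types looked at, only Ebf1 of B cells and Klf1 of red cell precursors had a region at a gene end in all 4 libraries. Of 4 markers of the thymic epithelium, which also bears EpCAM, Foxn1 and Krt5 had no region at a gene end, Krt8 had one in 1 library and Epcam itself had them in at most 3 libraries.

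The highest peaks of the locus stood beyond Trac and among the V segments nearest to Trd, while most V segments and the whole Traj array had no peak. The EpCAM-positive libraries had 30 and 38 peaks in the window, and the EpCAM-negative libraries 28 and 37. The mean was 34.0 ± 5.66 peaks in EpCAM-positive and 32.5 ± 6.36 peaks in EpCAM-negative libraries (SD, 2 libraries each; p = 0.667 in a two-sided exact permutation test), and the difference of 1.5 was smaller than the spread between replicates. The direction was the opposite with lists of equal length (-3.5), when EpCAM-positive replicate 2 was left out (-2.5) and when EpCAM-negative replicate 1 was (-3). Within each fraction the library numbered 2 had the more peaks. These peaks covered 14012 and 15365 bases in EpCAM-positive and 12505 and 13843 bases in EpCAM-negative libraries (p = 0.333 in the same exact permutation test, the smallest that 2 libraries against 2 allow). Of the 48 regions, 23 were called in all 4 libraries (47.9%, against 46.3% of regions genome-wide), 3 in 3 libraries, 3 in 2 and 19 in a single library (39.6%, against 29.8% genome-wide). Summit fragments, the pileup at the highest point of a peak, reached 9 to 199 in the regions called in all 4 libraries and 5 to 15 in those called in a single library. By position, 27 regions lay over or within 500 bp of a V segment, 11 farther out among the V segments, 5 among the D, J and C segments, 2 between Trac and Dad1 and 3 in Dad1 or Abhd4. Called in all 4 libraries were 9, 6, 3, 2 and 3 of these. The first region inside the low end of the window was that of Trav1, with 19 and 28 summit fragments in EpCAM-positive and 18 and 27 in EpCAM-negative libraries, and the nearest one outside had 16 and 20 in EpCAM-positive and 8 and 13 in EpCAM-negative libraries. At the high end the last one inside was that at the inner Abhd4 start, and the nearest outside had 54 and 44 in EpCAM-positive and 43 and 31 in EpCAM-negative libraries.

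**Figure D1:**
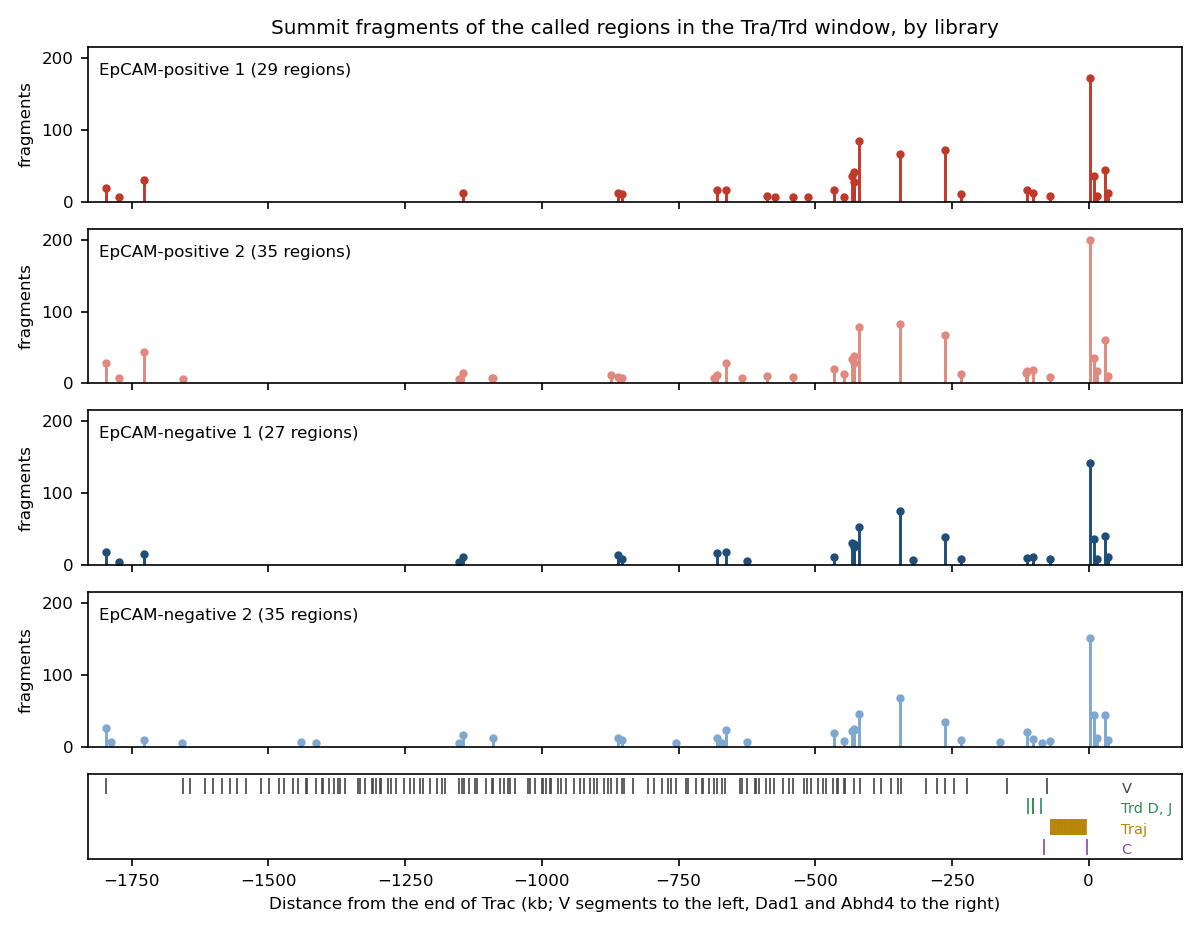
Summit fragments of every called region (vertical axis, linear) against the distance of its summit from the end of Trac in kb (horizontal axis), in a row per library with both EpCAM-positive libraries above both EpCAM-negative libraries, and the annotated segments at the bottom. The highest stem in each row is the region just beyond Trac, at 172 and 199 fragments in EpCAM-positive and 142 and 152 in EpCAM-negative libraries.

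The strongest region of the locus lay between Trac and Dad1, the interval that holds E-alpha. It ran from 54227119 to 54228305, began 2921 bp beyond Trac, which encodes the constant part of the alpha chain, and was the widest region of the window at 1187 bp. Replicates 1 and 2 had 172 and 199 summit fragments in EpCAM-positive cells and 142 and 152 in EpCAM-negative cells. The values did not overlap between fractions, with both EpCAM-positive libraries higher before scaling for depth, as was the case for 49.4% of shared regions genome-wide. After each library was centred on its median over the regions called in all 4 libraries (shared regions), the log2 difference of EpCAM-positive minus EpCAM-negative was 0.0089 ± 0.14 (SE; limma adjusted p = 0.986). By its highest −log10 q of 157 it had rank 289 of the 36224 regions, in the strongest 0.798%.

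A second region between Trac and Dad1, from 54233094 to 54233963, lay 8896 bp beyond Trac. It had 36 and 35 summit fragments in EpCAM-positive and 36 and 45 in EpCAM-negative libraries. The fractions met at 36, and EpCAM-negative replicate 2 stood highest. Its log2 difference was -0.50 ± 0.22 (SE; limma unadjusted p = 0.0367, adjusted p = 0.343), which did not pass. A difference between this site and the first was not tested.

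Further on, the facing starts of Dad1, a subunit of the enzyme that attaches sugar chains to proteins, and Abhd4, a lipid hydrolase, shared a region from 54253642 to 54254333. Its summit lay 6 bp before the first transcribed base of Dad1, within the sequence printed above for Dad1. It had 44 and 61 summit fragments in EpCAM-positive and 40 and 44 in EpCAM-negative libraries, so that the fractions met at 44. A weaker region inside Dad1, from 54238900 to 54239354, had 8 and 17 in EpCAM-positive and 9 and 13 in EpCAM-negative libraries, where the replicates numbered 2 were the higher in both fractions. The region at the inner Abhd4 start, from 54259201 to 54259612, had 12 and 11 in EpCAM-positive and 11 and 9 in EpCAM-negative libraries. None of these 3 regions passed limma (adjusted p = 0.832 to 0.974).

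The D, J and C segments themselves showed little called chromatin. No peak of any library lay over Trac or Trdc, and none lay in the 63.8 kb from the first to the last Traj segment, which hold 60 Traj segments. Between Trdj2 and Trdc, the 6013 bp where E-delta lies, the only peak was one of EpCAM-negative replicate 2, from 54138186 to 54138397 with 6 summit fragments, and no EpCAM-positive library had a peak there. A difference between fractions was not detectable there at this depth. A region from 54152631 to 54153049 lay 1956 bp before the pseudogene Traj61, the first of the array, on the side on which the T early alpha promoter lies. It had 8 and 9 summit fragments in EpCAM-positive and 9 and 8 in EpCAM-negative libraries, the same pair of values (log2 difference -0.32 ± 0.29, SE; limma adjusted p = 0.693).

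Both delta D segments, which are joined between a V and a J segment of the delta chain, had a region on the side of the V array. At Trdd2 a region from 54121825 to 54122169 ended 57 bp short of the segment, with 12 and 19 summit fragments in EpCAM-positive and 12 and 11 in EpCAM-negative libraries. EpCAM-positive replicate 2 stood above the others, and the remaining libraries lay within 1 fragment of each other (log2 difference 0.047 ± 0.30, SE; limma adjusted p = 0.964). A region from 54110963 to 54111521 lay 1947 bp before Trdd1, with 17 and 18 in EpCAM-positive and 10 and 21 in EpCAM-negative libraries, where the EpCAM-negative replicates stood on either side of both EpCAM-positive ones. Between the last V segment before the D segments, Trdv4, and Trdd1, only this region was called in more than a single library. The other one there, from 54108814 to 54109066, had 15 summit fragments in EpCAM-positive replicate 2 alone.

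**Figure D2:**
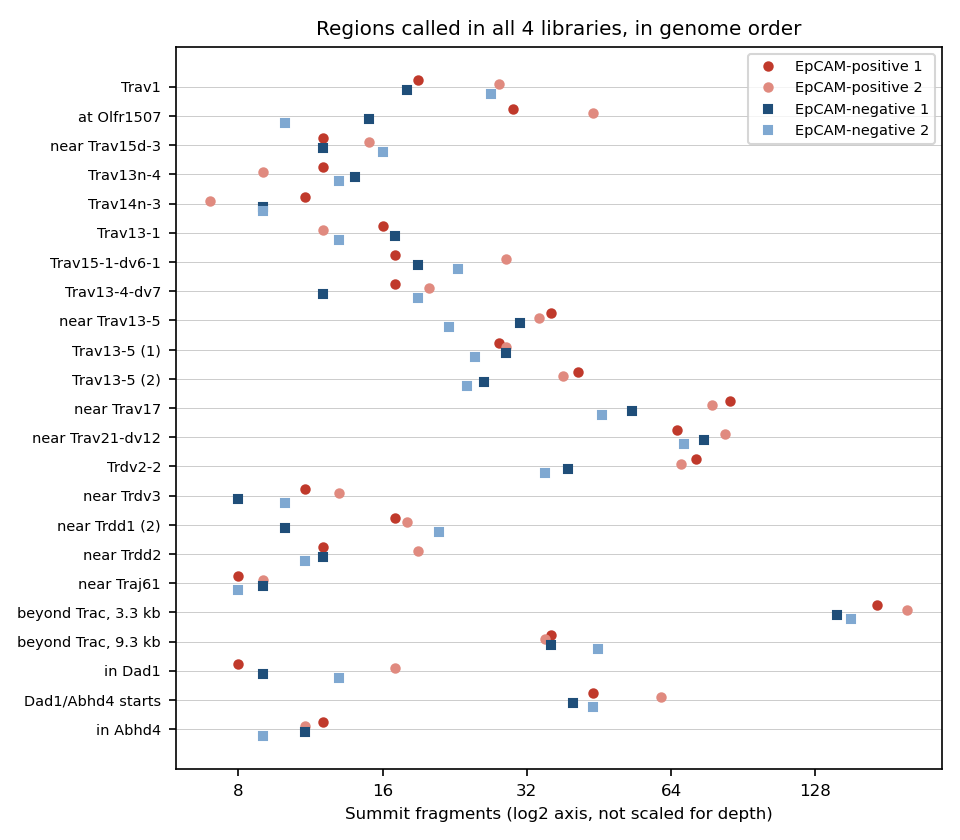
Summit fragments (horizontal axis, log2 scale, not scaled for depth) of the 23 regions called in all 4 libraries, from the low to the high end of the window, with circles for EpCAM-positive and squares for EpCAM-negative libraries. Both circles lie to the right of both squares in 7 regions (genome-wide 49.4% of shared regions), among them those near Trav17, at Trdv2-2 and at Olfr1507. The first region beyond Trac stands farthest right.

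Among the V segments the regions with the highest −log10 q lay near Trav17, Trav21-dv12 and Trdv2-2, all toward the Trd end of the array. Trdv2-2 encodes the variable part of a delta chain, and the region from 53960939 to 53961808 overlapped it together with the Gm30392 start whose sequence is printed above. It had 72 and 67 summit fragments in EpCAM-positive and 39 and 35 in EpCAM-negative libraries. The fractions did not overlap before scaling for depth, as at 49.4% of shared regions genome-wide, and replicates differed by at most 5 fragments. The log2 difference was 0.57 ± 0.20 (SE), a ratio of 1.49 (limma unadjusted p = 0.00914, adjusted p = 0.205), which did not pass. With the replicate number as a block the limma adjusted p was 0.0417, although nothing in the labels says that the numbers pair libraries.

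A region near Trav17, from 53803912 to 53804695 and 1944 bp before that segment, had 85 and 78 summit fragments in EpCAM-positive and 53 and 46 in EpCAM-negative libraries. It did not overlap between fractions before scaling either (genome-wide 49.4%), and its log2 difference was 0.39 ± 0.19 (SE; limma unadjusted p = 0.0505, adjusted p = 0.386). A region from 53878255 to 53879204 lay 1503 bp beyond Trav21-dv12, a segment that can be used in alpha and delta chains. It had 66 and 83 in EpCAM-positive and 75 and 68 in EpCAM-negative libraries, with the EpCAM-negative values inside the range of the EpCAM-positive ones. By −log10 q these regions reached 76.2 and 73.8, above the 60.8 at Trdv2-2 and below the 157 beyond Trac. A region 9205 bp from the pseudogene Trdv3, from 53991316 to 53991743, was weaker, with 11 and 13 in EpCAM-positive and 8 and 10 in EpCAM-negative libraries.

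At Trav13-5 a row of 3 regions stood on a raised local background. The region over the segment, from 53795073 to 53795949, had 41 and 38 summit fragments in EpCAM-positive and 26 and 24 in EpCAM-negative libraries. It did not overlap between fractions before scaling for depth (genome-wide 49.4%). Its neighbour from 53794409 to 53794982 had 28 and 29 in EpCAM-positive and 29 and 25 in EpCAM-negative libraries, and one from 53791580 to 53791871 had 36 and 34 in EpCAM-positive and 31 and 22 in EpCAM-negative libraries. The local background solved at the region over the segment was 5.23 and 4.92 fragments in EpCAM-positive and 3.72 and 2.90 in EpCAM-negative libraries. At the region over Trav13-1 it was 0.864 and 0.877 in EpCAM-positive and 0.806 and 0.869 in EpCAM-negative libraries. The fold over background deposited by the authors was 5.72 to 6.74 over Trav13-5 and 6.92 to 9.96 over Trav13-1, although the pileup was higher at Trav13-5. None of the 3 regions passed limma (adjusted p = 0.611 to 0.919).

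**Figure D3:**
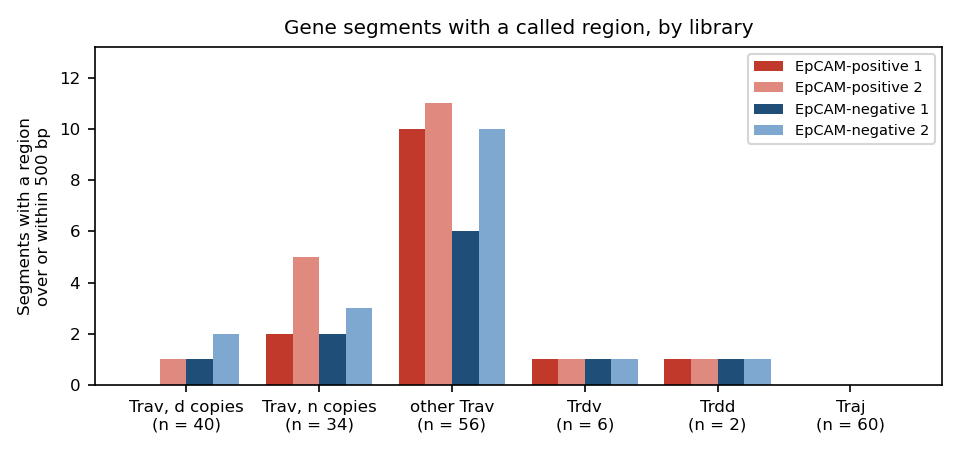
Number of gene segments with a region over or within 500 bp of them (vertical axis), by segment group and library, with the number of annotated segments under each group. Among the other Trav segments 10 and 11 had a region in EpCAM-positive and 6 and 10 in EpCAM-negative libraries, and no Traj segment had one in any library.

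Most V segments had no called region. Of 136 annotated V segments, 24 (17.6%) had a region over or within 500 bp of them in any list, 13 in at least 2 libraries and 8 in all 4. Single EpCAM-positive libraries had one at 13 and 18 V segments, and single EpCAM-negative libraries at 10 and 16. The mouse Trav array is partly triplicated, with copies that carry a d or an n in their names. Of the d copies, 2 of 40 had a region and none in all 4 libraries, of the n copies 5 of 34 with 2 in all 4, and of the other Trav segments 16 of 56 with 5 in all 4. The copies are near-identical and the treatment of reads with several matches is unknown, so the values of the copies are uncertain. The other Trav segments include members of the same families, such as Trav13-1 beside Trav13d-1 and Trav13n-1, and their values share this uncertainty. No test was made between these groups. None of the 17 V pseudogenes had a region. The longest stretch with no region in any list, 261.7 kb, lay between Trav10d and Trav13d-4, and no region was called in all 4 libraries over the 584.5 kb between Olfr1507 and the one near Trav15d-3.

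Members of the Trav13 family recurred among the V segments with a region, a pattern noticed after the values were seen and not tested. Of 13 Trav13 segments, which make up 10.0% of the 130 Trav segments, 6 had a region and 4 had one in all 4 libraries, and 5 of the 9 V regions called in all 4 libraries were theirs. At Trav13-1 the region from 53545095 to 53545668 had 16 and 12 summit fragments in EpCAM-positive and 17 and 13 in EpCAM-negative libraries. At Trav13-4-dv7, used by alpha and delta chains, the region from 53757312 to 53758045 had 17 and 20 in EpCAM-positive and 12 and 19 in EpCAM-negative libraries. At Trav13n-4, from 53363865 to 53364346, it had 12 and 9 in EpCAM-positive and 14 and 13 in EpCAM-negative libraries. Among the 23 shared regions it was the only one with both EpCAM-positive values below both EpCAM-negative values (genome-wide 5.20%; log2 difference -0.67 ± 0.30, SE; limma unadjusted p = 0.0341, adjusted p = 0.334). In these 3 segments the summit lay inside the annotated segment, 131, 60 and 79 bp from its higher-coordinate end, the side that faces the D and J segments. Over all 27 regions within 500 bp of a V segment, 12 had their summit before the lower-coordinate start, 11 inside and 4 beyond the higher-coordinate end.

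Outside the Trav13 family, 4 more V regions called in all 4 libraries were spread along the array. Trav1, the segment farthest from the constant end, had a region over its start from 52427511 to 52427989 with 19 and 28 summit fragments in EpCAM-positive and 18 and 27 in EpCAM-negative libraries. The replicates numbered 2 were higher in both fractions by 9 fragments. Trav15-1-dv6-1, which serves alpha and delta chains, had one from 53559669 to 53560558 with 17 and 29 in EpCAM-positive and 19 and 23 in EpCAM-negative libraries. Trav14n-3 had one from 53370595 to 53370918 with 11 and 7 in EpCAM-positive and 9 and 9 in EpCAM-negative libraries. The fourth was the one at Trdv2-2. A region from 53080573 to 53080906, 1157 bp from the pseudogene Trav15d-3, had 12 and 15 in EpCAM-positive and 12 and 16 in EpCAM-negative libraries. The V regions called in 2 or 3 libraries were weak. At Trav3-4 (53776956 to 53777520) both EpCAM-positive libraries had a peak, of 7 and 13 summit fragments, and EpCAM-negative replicate 2 had one of 8. At Trav13d-4 (53072669 to 53073272) there were 6 in EpCAM-positive replicate 2 and 5 and 6 in EpCAM-negative libraries. At Trav11n (53134834 to 53135285) there were 8 in EpCAM-positive replicate 2 and 12 in EpCAM-negative replicate 2. The remaining ones of this kind, at Trav4-3 and Trav4-4-dv10, differed in calls between fractions.

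**Figure D4:**
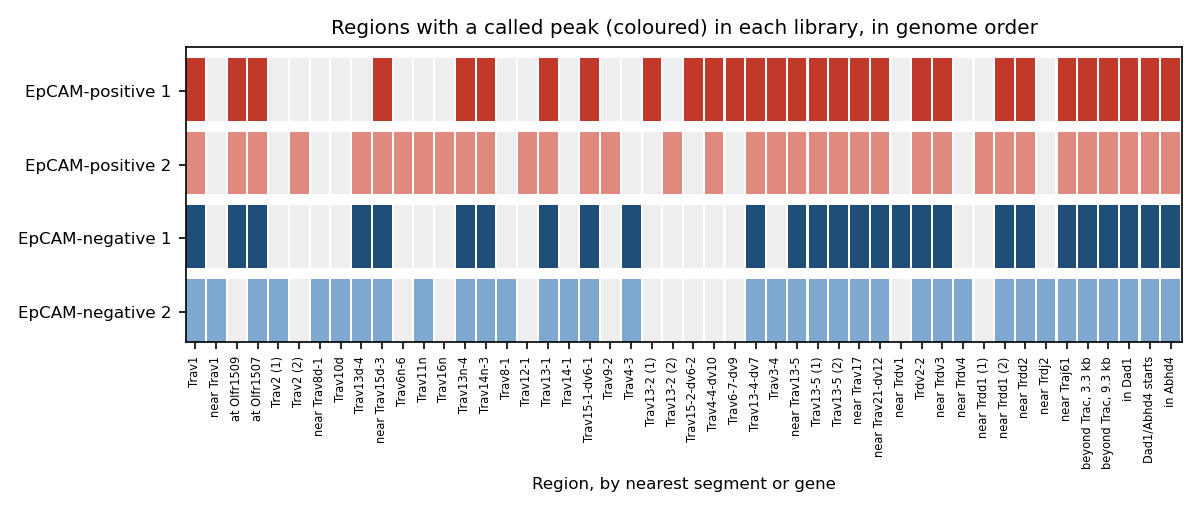
Called (coloured) and not called (grey) state of the 48 regions in genome order (horizontal axis, by nearest segment or gene) in the 4 libraries, with both EpCAM-positive libraries above both EpCAM-negative libraries. The last 6 regions at the right, from the one near Traj61 to the one in Abhd4, are called in every library, whereas the distal V array at the left is patchy.

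Each fraction had 1 region that both of its libraries called and the other fraction lacked. The EpCAM-positive-only region (genome-wide 4.40% of regions) lay over Trav4-4-dv10, a segment for alpha and delta chains, from 53683502 to 53683917. It had 6 and 9 summit fragments in EpCAM-positive libraries. The EpCAM-negative-only region (genome-wide 1.72% of regions) lay over Trav4-3, from 53599346 to 53599628, with 6 and 7 in EpCAM-negative libraries. Both are members of the Trav4 family and both were weak. Leaving out a library loosened the rule, so these counts could then only stay or rise. Such rises do not measure stability. The EpCAM-positive-only count was 8 without EpCAM-positive replicate 1, 4 without EpCAM-positive replicate 2 and 2 when either EpCAM-negative library was left out. The EpCAM-negative-only count was 9 without EpCAM-negative replicate 1, 2 when either library numbered 2 was left out and 1 without EpCAM-positive replicate 1. Of the regions called in a single library, 3 and 7 belonged to EpCAM-positive replicates and 1 and 8 to EpCAM-negative replicates, and in each fraction the replicate numbered 2 also had the longer list.

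The largest log2 difference among the 23 shared regions lay outside the receptor segments, at an olfactory receptor gene. Olfr1507 encodes an odorant receptor and lies, with other olfactory receptor genes, between Trav1 and Trav2. The region over its higher-coordinate end, from 52495302 to 52496085, was 66426 bp from the nearest segment, Trav1. It had 30 and 44 summit fragments in EpCAM-positive and 15 and 10 in EpCAM-negative libraries. The fractions did not overlap before scaling for depth (genome-wide 49.4%), and the lowest EpCAM-positive value was above the highest EpCAM-negative one by 15 fragments. The log2 difference was 1.17 ± 0.29 (SE), a ratio of 2.25 (limma unadjusted p = 0.000479, adjusted p = 0.0812), short of the threshold of 0.05. Its local background was 1.87 and 2.29 fragments in EpCAM-positive and 0.672 and 0.594 in EpCAM-negative libraries, and with the deposited fold in place of fragments the log2 difference was 0.58. The limma adjusted p was 0.00195 with the replicate number as a block and 0.00984 without EpCAM-negative replicate 1, and ranged over 0.0509 to 0.561 in the other alternatives run. A weak region over Olfr1509, from 52451017 to 52451617, had 7 and 8 summit fragments in EpCAM-positive libraries, 5 in EpCAM-negative replicate 1 and no call in EpCAM-negative replicate 2.

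Over all 23 regions called in every library, limma called 0 higher and 0 lower in EpCAM-positive DN3 cells, against 0.0239% higher and 0.0716% lower among the 16759 shared regions of the genome. At an unadjusted p under 0.05 the count was 4 of 23, at Olfr1507, Trdv2-2, Trav13n-4 and the second site beyond Trac, against 13.0% genome-wide. The log2 difference was above 0 in 8 and below 0 in 15, with a median of -0.13 against -0.028 over all shared regions. Before scaling for depth, 7 regions had both EpCAM-positive libraries above both EpCAM-negative ones (genome-wide 49.4%) and 1 had them below (genome-wide 5.20%). The median over these 23 regions was 17 and 28 summit fragments in EpCAM-positive and 17 and 21 in EpCAM-negative libraries, while over all shared regions it was 31 and 32 in EpCAM-positive and 25 and 25 in EpCAM-negative libraries. In simulated shared regions with this design, limma recovered 8% of 1.5-fold, 56% of 2-fold and 92% of 3-fold changes. The changes were placed in regions drawn from all shared regions, whose medians were higher. Recovery at the levels of this window was not simulated. With the replicate number as a block, 2 regions passed in the higher direction, at Olfr1507 and Trdv2-2, against 1.53% genome-wide, and 0 in the lower direction, against 3.23%.

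**Figure D5:**
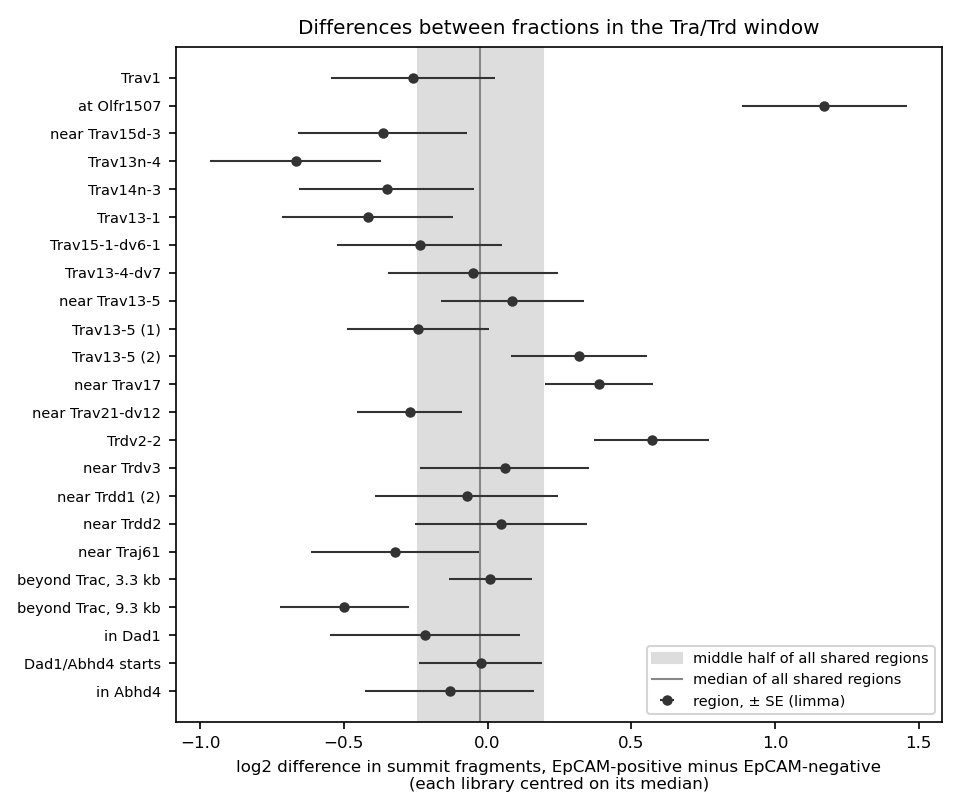
log2 difference in summit fragments, EpCAM-positive minus EpCAM-negative (horizontal axis, points with limma standard errors), of the 23 regions called in all 4 libraries, with the median (line) and the middle 50% (grey band) of all shared regions. The region at Olfr1507 stands farthest to the right at 1.17, and the strongest region, the first beyond Trac, sits at 0.0089.

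The other receptor loci that rearrange in double-negative cells were counted in the same way. The Trb window, which holds the segments of the beta chain, had 19 regions, and all 4 libraries called 12 of them (genome-wide 46.3%). No region there was EpCAM-positive-only or EpCAM-negative-only. The Trg window, which holds the gamma chain segments, had 10 regions with 7 in all 4, and likewise none in 1 fraction only. No test was made between these windows. A region fell on every 40 kb in the alpha and delta window, 39.5 kb in the Trb window and 25 kb in the Trg window. In none of the 3 windows did a region pass limma, and 2 of 12 in the Trb and 1 of 7 in the Trg window had an unadjusted p under 0.05 (genome-wide 13.0%).

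The genes that act on this locus were described by 3 lists. Among factors that bind its enhancers, 107 regions lay nearest to 14 of the 15 genes, and 1 of the 55 tested passed limma, against the genome-wide 0.0239% in this direction. At an unadjusted p under 0.05 there were 6 of the 55 (genome-wide 13.0%). Lef1, which encodes a high-mobility-group factor that bends DNA at E-alpha, was the nearest gene within 100 kb of the region that passed. This region, on chromosome 3 from 131014048 to 131014716, was assigned by proximity alone and need not lie at the gene. It had 72 and 58 summit fragments in EpCAM-positive and 21 and 20 in EpCAM-negative libraries (log2 difference 1.29 ± 0.23, SE; limma adjusted p = 0.0233). The fractions did not overlap there before scaling for depth (genome-wide 49.4%). The log2 difference at this Lef1 region lay between 1.11 and 1.46 when each library was left out. With the deposited fold in place of fragments it was 0.84 (limma adjusted p = 0.188), in a fit that called 0 regions genome-wide. Tcf7, whose product TCF1 is related to LEF1, had 77 and 70 summit fragments at its strongest region in EpCAM-positive and 36 and 58 in EpCAM-negative libraries (limma adjusted p = 0.524). Ets1, which encodes the founding ETS factor, had 87 and 92 in EpCAM-positive and 109 and 95 in EpCAM-negative libraries at its own (limma adjusted p = 0.176). Among 14 V(D)J recombination genes, 39 regions gave 20 tested and 0 called, with 1 of the 20, at Dntt, at an unadjusted p under 0.05 (genome-wide 13.0%). Dntt, which encodes the polymerase that adds bases at the joints, had its strongest region at 98 and 101 in EpCAM-positive and 90 and 75 in EpCAM-negative libraries, with limma adjusted p = 0.935. That region was not the one of Dntt with an unadjusted p under 0.05. The EpCAM-negative lists reached down to a lower −log10 q than the EpCAM-positive ones. What this means for weak calls at the list genes was not tested. Rag1, which encodes a recombinase subunit, had a region in no EpCAM-positive library and one with 7 and 4 summit fragments in the EpCAM-negative libraries. It was the only EpCAM-negative-only region of the 39 (genome-wide 1.72%), and 2 others, at Dntt and Polm, were EpCAM-positive-only (genome-wide 4.40%). Among the 5 receptor partners, Ptcra and the CD3 chains, 8 of 20 regions were tested and 0 passed, with 0 at an unadjusted p under 0.05 (genome-wide 13.0%). Ptcra, which encodes the pre-TCR alpha chain, had a region of 14 and 16 summit fragments in the EpCAM-negative libraries that no EpCAM-positive list held. It was the only EpCAM-negative-only region of the 20 (genome-wide 1.72%), while none was EpCAM-positive-only (genome-wide 4.40%). Of its 107 regions, the enhancer factor list held 3 that were EpCAM-positive-only (genome-wide 4.40%) and 5 that were EpCAM-negative-only (genome-wide 1.72%).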

How the data were processed

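ATAC-seq peaks of 4 libraries of mouse DN3 thymocytes were analysed, 2 EpCAM-positive and 2 EpCAM-negative, grouped by the titles in the labels. The submitters' processing notes name bedtools, Bowtie2, deepTools, FastQC, MACS3, Picard, SAMtools, Trim Galore and Trimmomatic, and mm10 as the build. Roles, versions, caller settings, the handling of duplicates and multiply matching reads, and any transposase shift are unknown. The deposited lists, 1 per library, hold for each peak a display score, a fold over local background, and −log10 p and −log10 q values, all made by the authors' caller. The score was not used.

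The pileup at each summit, called summit fragments although the caller may have counted reads, was worked out together with the local background as the Poisson pair that gives the deposited fold and −log10 p, within 0.01 on −log10 p, for 99.9931% to 100% of the peaks of a list. For 2 to 4 peaks of the window in 3 libraries another pileup also fell within this tolerance, and the nearest match was taken. The solver and the fit were tested on simulated data. Merging joined peaks that shared at least 1 bp (chromosomes 1 to 19, X and Y), and a region took the highest pileup of each library. Summit fragments of regions called in all 4 libraries were compared as log2(fragments + 1), each library centred on its median, with limma 3.58.1 (trend; Benjamini-Hochberg over 16759 regions, threshold 0.05). A fold change on this scale understates that of low regions. Values per library were compared by exact permutation.

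Named were regions within 2000 bp of the delta D, J and C segments or Trac or between Trac and Dad1, regions within 500 bp of a V segment in at least 2 libraries, the 10 with the highest −log10 q, all found in 1 fraction only, and all past the threshold. The members and gene lists were chosen with earlier results of these data known. Alternatives were a stricter −log10 q of 5, lists of equal length or scaled for depth, a narrower window, other merging rules, other scalings and filters, and leaving out each library. The gene table used (RefSeq GRCm38.p6) gives gene ends but no exons, so exons, introns and untranslated regions are not stated. Promoter sequences and their strands came from a RefSeq table of the same build, and sequence under other regions was not used here. List genes took the regions nearest to their ends within 100 kb.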

Additional observations from a re-analysis of the deposited data

How the results depend on the processing

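The mean number of peaks in the window was higher by 1.5 in EpCAM-positive libraries as deposited, but was -3.5 (EpCAM-positive minus EpCAM-negative) with lists of equal length, and ranged over -3 to 6 when each library was left out in turn, so it has no stable direction. The difference in bases covered kept its sign under every alternative run, but fell from 1514.5 to 303.5 bases with lists of equal length. It was unchanged at 1514.5 with lists scaled for depth. EpCAM-positive-only regions, 1 as deposited, numbered 0 with lists of equal length, 2 when a call needed an overlap of at least 0.5 of the shorter peak, and 2 to 8 when each library was left out. EpCAM-negative-only regions, also 1, numbered 0 at a −log10 q of at least 5, 3 with lists of equal length and 1 to 9 when each library was left out. Leaving out a library loosened the rule, so both counts could then only stay or rise. Regions called in all 4 libraries numbered 18 to 23 under the settings that kept every library. When each library was left out, 23 to 24 were called in all that remained, a count that likewise could not fall. The count of regions past limma in the higher direction was 2 with the replicate block and 0 to 1 when each library was left out, where it was 1 without EpCAM-negative replicate 1. It was 0 under the other alternatives run, and the count in the lower direction was 0 under all of them.

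The replicate block gave 798 genome-wide limma calls, against 16 without it. Deviations of same-numbered libraries correlated at 0.165 over 16759 regions, and with 2 libraries a fraction this does not show that the numbers pair them. The block gave an exact sign-flip p of 0.5 for the peaks and for the bases. Genome-wide calls were 0 with the deposited fold and when either EpCAM-positive library was left out, 30 with a pseudocount of 5, 34 with a mean of at least 20 fragments, 42 at the stricter −log10 q, 47 without EpCAM-negative replicate 2, 181 without EpCAM-negative replicate 1, and 261 when scaled by background, which moved the median of all regions to -0.13 against -0.028.

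The median log2 difference of the shared regions, -0.13, lay between -0.23 and -0.0036 under the alternatives that kept all libraries and between -0.20 and 0.024 when each library was left out, with the sign turned without EpCAM-positive replicate 1. Of the 23 shared regions, 12 kept the sign of their log2 difference under every alternative run, among them those at Olfr1507, Trdv2-2, Trav17, Trav13n-4 and the second site beyond Trac. Scaled by background, the sign turned at the first Trav13-5 region (-0.013), near Trdv3 (-0.039), near Trdd2 (-0.052) and at the first site beyond Trac (-0.090). With a pseudocount of 5 it turned near Trdv3 (-0.0015). With the deposited fold it turned at Trav15-1-dv6-1 (0.087), Trav13-4-dv7 (0.13), the first Trav13-5 region (-0.080), near Trdd2 (-0.17) and at the inner Abhd4 start (0.14). Leaving out each library gave -0.54 to 0.020 at Trav1, -0.58 to 0.11 at Trav15-1-dv6-1, -0.36 to 0.26 at Trav13-4-dv7, -0.15 to 0.32 at the first Trav13-5 region, -0.085 to 0.20 near Trdv3, -0.57 to 0.43 near Trdd1, -0.24 to 0.34 near Trdd2, -0.074 to 0.091 at the first site beyond Trac, -0.69 to 0.26 inside Dad1 and -0.23 to 0.19 at the Dad1 and Abhd4 starts. None of these regions passed in any fit, and the cause was not tested. Depth is known as a background level, not as reads.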
